A study of Mus musculus with 22 samples.

Results

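Levels of 10 marker genes of inhibitory interneurons were followed in TRAP and total-RNA libraries of the prefrontal cortex (PFC). The mice were given saline, or ethanol (EtOH) with or without the PARP inhibitor ABT-888. The genes were the rows of the count matrix whose Ensembl identifier carries the symbol Gad1, Gad2, Slc32a1, Reln, Pvalb, Calb2, Sst, Vip, Npy or Lhx6, 10 of the 39056 genes in the matrix. All 10 were among the 14072 genes that passed the filter on low counts.

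The data came from 11 male transgenic mice of 8 to 12 weeks, each of which gave 1 TRAP library and 1 total-RNA library, so there were 22 libraries in 6 groups. Every mouse, controls included, carried CaMKIIα-tTA and tetO-EGFP/Rpl10a on a C57BL/6J background, which places an EGFP tag on a large-subunit ribosomal protein wherever the CaMKIIα promoter drives the transactivator. TRAP (translating ribosome affinity purification) pulls down the tagged ribosomes with an antibody to EGFP and sequences the RNA bound to them, and the total-RNA library (INPUT) was made from a portion of the same homogenate before the pull-down. Control mice (mice 1, 4 and 7) received normal saline, EtOH mice (mice 2, 5, 8 and 9) received EtOH at a daily dose of 2 g/kg, and EtOH + ABT-888 mice (mice 3, 6, 10 and 11) received the same EtOH plus ABT-888 at 25 mg/kg on the last day. Injections were intraperitoneal, 2 per day with 2 h between them for 4 days, and PFC was taken 2 h after the last injection. TRAP libraries held 6570957 to 22002618 counts (median 15711482) and total-RNA libraries 22132534 to 32421392 counts (median 28734687), so a low gene was measured less precisely in TRAP than in total-RNA.

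Cortical interneurons are local-circuit cells that release GABA, the main inhibitory transmitter of the adult cortex. Gad1 and Gad2 encode the enzymes that make GABA from glutamate, and Slc32a1 encodes the transporter that loads GABA into synaptic vesicles; all GABA neurons use them, including the projection neurons of the striatum. Interneurons fall into classes that arise in different parts of the embryonic ganglionic eminences. Pvalb marks fast-spiking cells, Sst marks cells that contact dendrites, Vip marks cells that mostly inhibit other interneurons, and Npy, Calb2 and Reln mark further, partly overlapping groups. The CaMKIIα promoter is known as a forebrain promoter most active in excitatory neurons, although it is also active in other forebrain neurons such as those of the striatum.

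By the GENCODE release 21 annotation of mm10, the 4 genes on chromosome 2 were Gad2 (chr2:22622205-22693874, plus strand), Lhx6 (chr2:36081953-36105408, minus), Gad1 (chr2:70553072-70602014, plus) and Slc32a1 (chr2:158610767-158615748, plus). The others were Reln (chr5:21884454-22344702, minus), Npy (chr6:49822710-49829507, plus), Calb2 (chr8:110137502-110168210, minus), Vip (chr10:5639218-5647617, plus), Pvalb (chr15:78191114-78206400, minus) and Sst (chr16:23889573-23890958, minus). Some of these genes overlap others, and the strand setting of the counting is not given in the sources used here. Slc32a1 shares 697 exonic bases with the antisense gene Gm14205, Reln shares 246 with the antisense gene Gm10475, and Lhx6 shares 104 with the same-strand gene Gm27953. The antisense gene Gad1os lies over Gad1 without sharing an exonic base.

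The start of Sst is known for a cAMP response element (CRE), the palindrome TGACGTCA, through which activity-dependent factors such as CREB act on peptide genes. Windows of 250 bases before the transcription start (RefSeq, GRCm38.p6) were found for 9 of the 10 genes and searched on both strands for TGACGTCA and for its core TGACG, which every TGACGTCA also contains. Some genes have more than 1 start, and the 9 genes had 12 windows. The core was present in 3 of these 12, those of Gad2, Sst and Vip, against 17.8% of 32851 windows in the genome-wide table, and the full palindrome in that of Sst alone, against 1.55%. The matches are given on the strand of the gene, with the motif in capitals, because they are the windows of the 12 that hold the core. Where the window reached into an exon of the GENCODE annotation, as for Gad2 and Sst, 30 bases around the match are given (Gad2 at chr2:22622282-22622311, plus strand; Sst at chr16:23890874-23890903, minus strand), and for Vip the whole window (chr10:5638968-5639217, plus strand). In the Gad2 line the capitals are the core as read from the other strand.
Gad2: ccatttcccttcCGTCActctctcatctcc
Sst: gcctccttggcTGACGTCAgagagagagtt
Vip: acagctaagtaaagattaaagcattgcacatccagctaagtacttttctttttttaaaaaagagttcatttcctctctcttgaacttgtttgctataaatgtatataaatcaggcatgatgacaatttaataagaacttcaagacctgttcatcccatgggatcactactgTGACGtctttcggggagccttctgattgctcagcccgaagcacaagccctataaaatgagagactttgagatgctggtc
The core in Vip lies 79 bases before the start, and the palindrome in Sst lies 48 bases before it. A match describes the letters of the window and was not tested for binding.

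The first comparison asked how transcripts of the marker genes were distributed between the tagged ribosomes and total-RNA. The markers split into opposite directions. Gad1, Gad2, Slc32a1 and Reln were higher in TRAP than in total-RNA in all 3 treatments and in 11 of 11 mice, whereas Pvalb, Npy, Vip, Calb2 and Lhx6 were lower in 11 of 11 mice, and Sst was lower in 9 of 11. With edgeR's quasi-likelihood test and a Benjamini-Hochberg adjusted p under 0.05 over all genes, 8 of the 10 were called in Control (4 higher and 4 lower), and 9 in EtOH and 9 in EtOH + ABT-888 (4 higher and 5 lower in each). Of all genes tested, 59.9% were called in Control (29.5% higher, 30.4% lower), 50.7% in EtOH (24.3% higher, 26.5% lower) and 41% in EtOH + ABT-888 (19.5% higher, 21.5% lower), so many genes beside these also differed between the sample types. Both libraries of a mouse came from the same homogenate, so this difference does not compare numbers of cells. Which cells carried the tag and how much of a transcript was bound to ribosomes cannot be told apart in it. Between treatments, fewer cells of a type and less RNA per cell cannot be told apart in bulk samples.

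**Figure D1:**
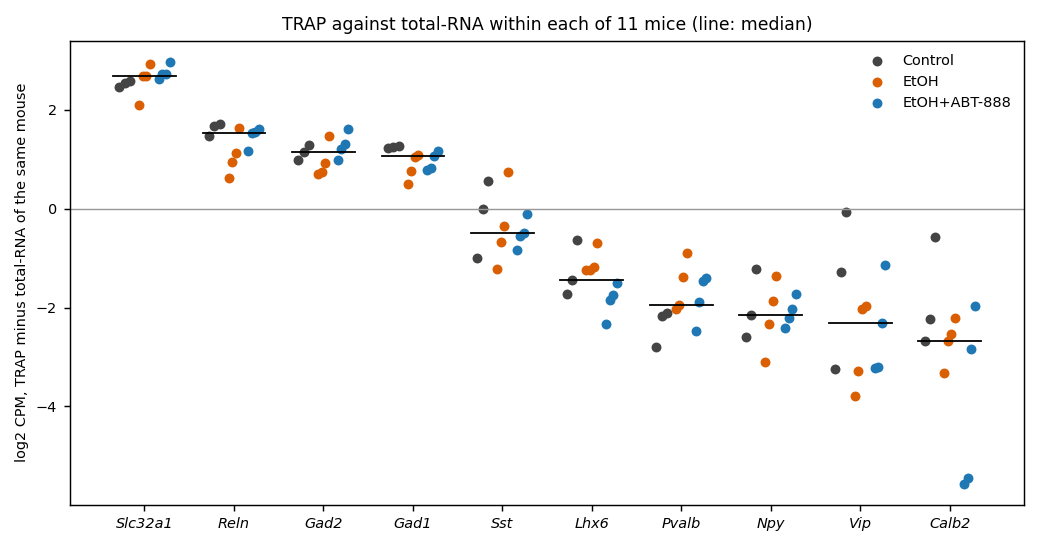
Difference in log2 CPM between the TRAP and the total-RNA library of the same mouse (vertical axis) for each marker gene (horizontal axis). Each point is 1 of 11 mice, coloured by treatment, and the line is the median over the mice. Slc32a1, Reln, Gad2 and Gad1 lie above 0 in every mouse, Sst lies on both sides of 0, and the other 5 genes lie below 0 in every mouse.

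Levels are given as normalised CPM (counts scaled to a common library size), which serves for comparing 1 gene across libraries. For the enzymes of GABA synthesis, the Gad1 level in total-RNA was 287, 314 and 307 CPM in Control mice 1, 4 and 7, and the TRAP level in the same mice was 684, 740.2 and 738 CPM. In EtOH mice 2, 5, 8 and 9 Gad1 stood at 322, 339, 337 and 352 CPM in total-RNA and at 667, 483, 721 and 595 CPM in TRAP, and in EtOH + ABT-888 mice 3, 6, 10 and 11 at 308, 265, 321 and 314 CPM against 644, 600.1, 553 and 558 CPM. TRAP libraries did not overlap with total-RNA libraries in any treatment. The log2 fold change of Gad1, TRAP against total-RNA, was 1.24 ± 0.08 (SE, n = 3 mice) in Control, with an adjusted p of 4.34e-07 by edgeR, 0.85 ± 0.14 in EtOH (n = 4, adjusted p = 0.000352) and 0.96 ± 0.12 in EtOH + ABT-888 (n = 4, adjusted p = 0.000117).

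Gad2, the isoform of the enzyme associated with synaptic terminals, stood at 288, 299.6 and 353 CPM in Control total-RNA and at 708, 666 and 697 CPM in Control TRAP. In EtOH mice it stood at 432, 472, 381 and 371 CPM in total-RNA and at 823, 785, 1059 and 607 CPM in TRAP. In EtOH + ABT-888 mice the Gad2 level was 296, 271, 336 and 330.5 CPM in total-RNA and 734, 826, 778 and 658 CPM in TRAP. Again every TRAP library was above every total-RNA library of its treatment. Gad2 had a log2 fold change of 1.12 ± 0.09 in Control (adjusted p = 2e-06), 0.96 ± 0.16 in EtOH (adjusted p = 0.000526) and 1.28 ± 0.13 in EtOH + ABT-888 (adjusted p = 3.02e-05).

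Slc32a1, the vesicular GABA transporter, showed the largest difference of the 4 higher markers. Its level was 64.4, 70.4 and 59.8 CPM in Control total-RNA against 388, 413 and 331 CPM in TRAP. EtOH mice had 69.1, 83.4, 69.7 and 70.8 CPM against 525, 357, 452 and 459 CPM, and EtOH + ABT-888 mice 77.6, 51.8, 56.6 and 60.8 CPM against 515, 321, 445 and 401 CPM. The lowest TRAP library of Slc32a1 was thus far above its highest total-RNA library. The TRAP level of Slc32a1 was 5.75-fold the total-RNA level in Control (adjusted p = 6.14e-08), 6.04-fold in EtOH (adjusted p = 9.13e-07) and 6.82-fold in EtOH + ABT-888 (adjusted p = 3.08e-06).

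Reln encodes reelin, a secreted glycoprotein made in the adult cortex by several interneuron classes. Its level was 164, 174 and 186 CPM in Control total-RNA and 526, 482 and 614 CPM in Control TRAP. EtOH mice had 127, 136, 152 and 156 CPM in total-RNA and 244, 208, 468 and 343 CPM in TRAP, and EtOH + ABT-888 mice 161, 109.7, 132 and 138 CPM against 466, 324, 403 and 311 CPM. Reln TRAP libraries of EtOH mice 2 and 5 were the lowest of all 11 but remained above every total-RNA library. Reln had a log2 fold change of 1.62 ± 0.10 in Control (adjusted p = 3.7e-07), 1.13 ± 0.22 in EtOH (adjusted p = 0.00137) and 1.47 ± 0.17 in EtOH + ABT-888 (adjusted p = 6.29e-05). Markers of Cajal-Retzius cells, the other cortical source of reelin (Trp73, Lhx5, Lhx1 and Ebf3), did not pass the filter, and their summed level was at most 2.5 CPM in any group.

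Markers of striatal projection neurons, which also use Gad1, Gad2 and Slc32a1, moved with these genes. All 12 of 12 listed, among them Drd1, Drd2, Ppp1r1b, Tac1 and Penk, were higher in TRAP in each treatment, with median log2 fold changes of 2.98 in Control, 2.77 in EtOH and 3.05 in EtOH + ABT-888 against medians of 0.02, 0.03 and 0.05 over all genes tested. Their summed level was 14869 to 18640 CPM over the TRAP libraries and 1758 to 3287 CPM over the total-RNA libraries, with no overlap. Drd2, the D2 dopamine receptor, stood at a mean of 605 CPM in Control TRAP and 56.4 CPM in Control total-RNA. The part of these cells in the levels of Gad1, Gad2, Slc32a1 and Reln was not tested.

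The calcium-binding proteins parvalbumin and calretinin were on the other side, whereas Calb1 of the wider list, which encodes calbindin, was higher in TRAP in each treatment (means of 307 against 176 CPM in Control). Pvalb encodes parvalbumin, the marker of fast-spiking basket and chandelier cells. Its level was 32.8, 31.4 and 31.4 CPM in Control total-RNA and 7.26, 4.49 and 7.28 CPM in Control TRAP. In EtOH it was 17.4, 20.6, 35 and 28.2 CPM against 9.39, 7.94, 9.09 and 6.87 CPM in TRAP, and in EtOH + ABT-888 25.5, 21.5, 40.7 and 35.1 CPM against 9.27, 8.11, 7.28 and 9.47 CPM. No TRAP library reached the lowest total-RNA library. The Pvalb level in total-RNA was 5.15-fold the TRAP level in Control (log2 fold change -2.36 ± 0.18, adjusted p = 1.03e-06), 3.08-fold in EtOH (adjusted p = 0.000187) and 3.60-fold in EtOH + ABT-888 (adjusted p = 0.000114).

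Calb2 encodes calretinin and was the least abundant of the markers by counts, with 2 to 103 counts per TRAP library. In Control mice its level was 8.48, 5.87 and 8.77 CPM in total-RNA and 1.28, 1.22 and 5.86 CPM in TRAP. With EtOH it stood at 18.3, 7.37, 9.25 and 12 CPM against 3.93, 1.11, 0.885 and 2.04 CPM, and in EtOH + ABT-888 10.3, 8.36, 7.1 and 10 CPM against 1.39, 2.10, 0.106 and 0.187 CPM. The last of these TRAP values rest on 2 counts in mouse 10 and 3 counts in mouse 11. The log2 fold change of Calb2 was -1.41 ± 0.47 in Control (adjusted p = 0.0213), -2.61 ± 0.46 in EtOH (adjusted p = 0.000638) and -3.45 ± 0.68 in EtOH + ABT-888 (adjusted p = 0.00202). The Calb2 call in Control was lost with DESeq2 (-1.48, adjusted p = 0.0748), with a single fit over all 22 libraries (-1.43, adjusted p = 0.08), and without the TRAP library of mouse 1 (-1.14, adjusted p = 0.0684) or the total-RNA library of mouse 1 (-1.35, adjusted p = 0.0643) or mouse 7 (-1.32, adjusted p = 0.0767). Without the TRAP library of Control mouse 7 it was -2.64 (adjusted p = 3.23e-05), and without the TRAP library of EtOH + ABT-888 mouse 6 the value in that treatment was -4.11.

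Among the peptides, Npy (neuropeptide Y) was lower in TRAP throughout. Its level was 98.3, 86.4 and 89.6 CPM in Control total-RNA and 16.1, 19.5 and 38.2 CPM in Control TRAP. In EtOH it was 59.8, 48.4, 87.2 and 67.3 CPM against 23.3, 9.56, 23.7 and 7.82 CPM in TRAP, and in EtOH + ABT-888 81.1, 56, 96.2 and 76.4 CPM against 19.8, 17, 17.9 and 16.5 CPM. The sample types did not overlap, and the highest TRAP value belonged to Control mouse 7. The Npy level in total-RNA was 3.70-fold the TRAP level in Control (adjusted p = 5.17e-05), 4.14-fold in EtOH (adjusted p = 0.000487) and 4.35-fold in EtOH + ABT-888 (adjusted p = 1.18e-05).

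Vip (vasoactive intestinal peptide) stood at 60.8, 46.2 and 58.9 CPM in Control total-RNA and at 6.4, 18.9 and 56.1 CPM in the TRAP libraries of Control mice 1, 4 and 7, so mouse 7 was well above mice 1 and 4. In EtOH its level was 44.3, 39.3, 68.5 and 51.2 CPM in total-RNA and 10.8, 2.78, 6.98 and 13 CPM in TRAP, and in EtOH + ABT-888 43.6, 45.3, 67.6 and 64 CPM against 8.69, 20.6, 7.23 and 6.92 CPM. The TRAP library of Control mouse 7 lay within the range of its total-RNA group, and the other 10 TRAP libraries lay below every total-RNA library. The log2 fold change of Vip was -1.0 ± 0.48 in Control and missed the threshold (adjusted p = 0.096). With the mouse as a block it was -1.30 (adjusted p = 0.0181), and without the TRAP library of mouse 7 -2.06 (adjusted p = 0.000183). Without a filter on low counts it was -1.01 (adjusted p = 2.44e-14). That fit gave a much smaller p at nearly the same value. Here and below, its p-values cannot be taken to measure the spread between mice. Without the TRAP library of mouse 1 the Vip value was -0.57 (adjusted p = 0.189). It was -2.63 ± 0.38 in EtOH (adjusted p = 0.000175) and -2.38 ± 0.34 in EtOH + ABT-888 (adjusted p = 0.000257).

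Sst (somatostatin) was the only marker called in no treatment. Its level was 68.3, 56.7 and 55.7 CPM in Control total-RNA and 34, 56.2 and 82.8 CPM in Control TRAP, where the highest value was again that of mouse 7. In EtOH it was 30.3, 49.3, 54.5 and 55.7 CPM against 50.6, 30.8, 42.9 and 23.7 CPM in TRAP, and in EtOH + ABT-888 60, 45.7, 40.5 and 40.9 CPM against 55.4, 31.2, 28.6 and 22.8 CPM. The sample types overlapped in every treatment. The log2 fold change of Sst was -0.06 ± 0.23 in Control (95% interval -0.52 to 0.40, adjusted p = 0.831), -0.38 ± 0.25 in EtOH (-0.86 to 0.11, adjusted p = 0.222) and -0.44 ± 0.26 in EtOH + ABT-888 (-0.95 to 0.07, adjusted p = 0.202). In EtOH + ABT-888 it was -0.50 with the mouse as a block (adjusted p = 0.0108) and -0.77 without the TRAP library of mouse 3 (adjusted p = 0.011), but -0.28 without the TRAP library of mouse 11 (adjusted p = 0.436). In EtOH the Sst value was -0.22 without the TRAP library of mouse 9 (adjusted p = 0.453).

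Lhx6 encodes a transcription factor that cells of the medial ganglionic eminence, the origin of the Pvalb and Sst classes, keep into adulthood. Its level was 19.3, 20.8 and 17.9 CPM in Control total-RNA and 7.04, 6.26 and 11.5 CPM in Control TRAP. With EtOH it stood at 26.9, 19.1, 21 and 19.5 CPM against 16.7, 8.12, 9.24 and 8.30 CPM in TRAP, and in EtOH + ABT-888 25, 15.8, 20.4 and 20 CPM against 6.97, 4.65, 7.12 and 3.93 CPM. The sample types did not overlap within a treatment. Lhx6 had a log2 fold change of -1.23 ± 0.21 in Control (adjusted p = 0.000405), -1.06 ± 0.25 in EtOH (adjusted p = 0.00386) and -1.83 ± 0.26 in EtOH + ABT-888 (adjusted p = 0.000225).

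**Figure D2:**
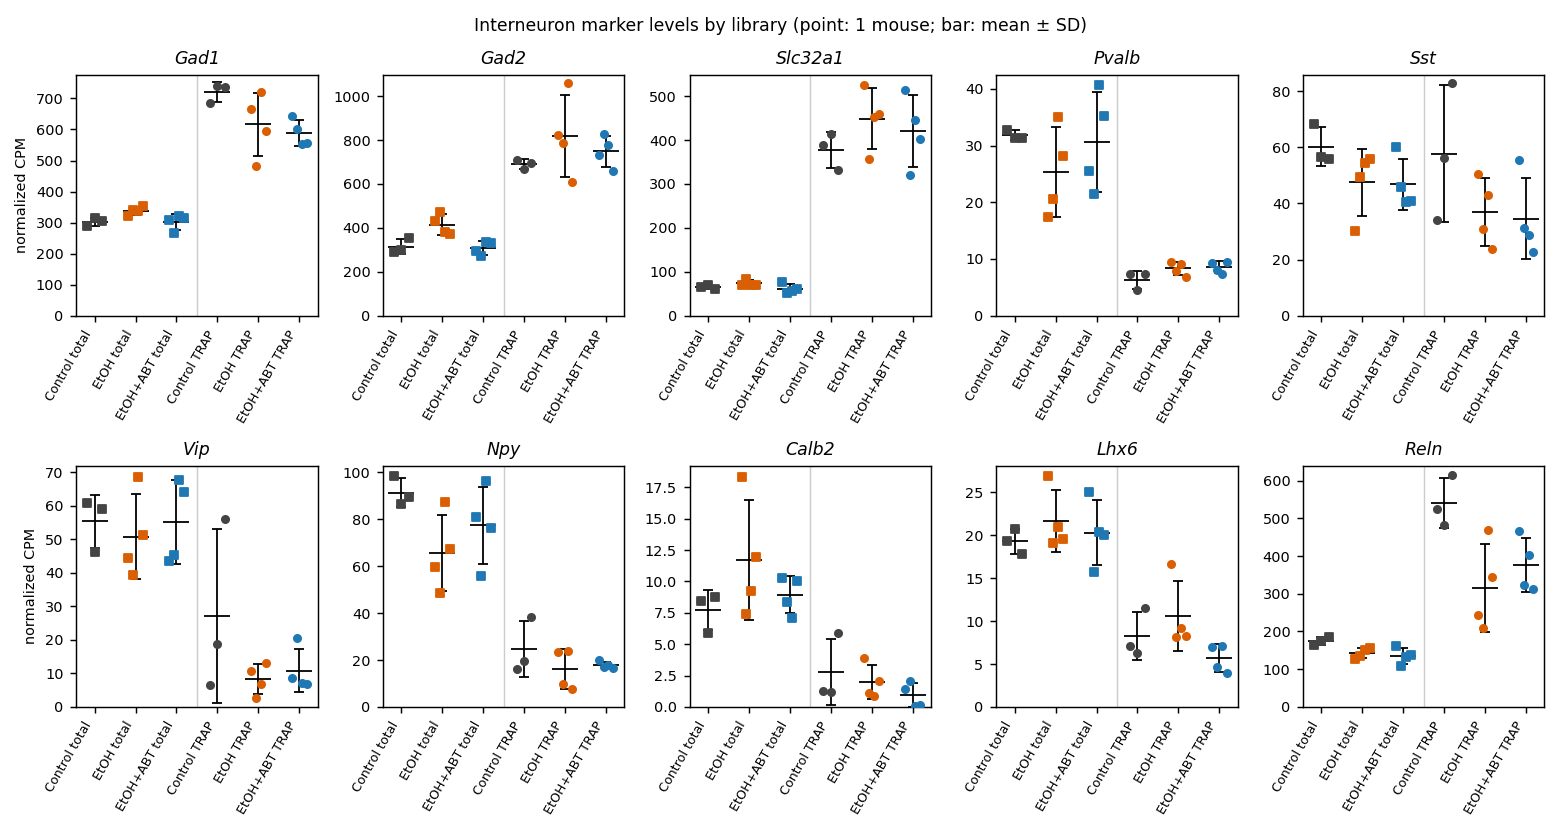
Normalised CPM (vertical axis, a separate linear scale from 0 for each gene) of the 10 marker genes in the 6 groups (horizontal axis, total-RNA on the left and TRAP on the right of the line). Each point is 1 library, squares for total-RNA and circles for TRAP, and bars give the mean ± SD of 3 or 4 mice. TRAP points lie above the total-RNA points for Gad1, Gad2, Slc32a1 and Reln and below them for Pvalb, Npy, Calb2 and Lhx6 within each treatment, and the Control TRAP points of Vip run from 6.4 to 56.1 CPM.

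Levels per kilobase of exon (RPKM) put the markers in a different order in each sample type. In Control total-RNA the order of mean RPKM was Npy at 162, Sst at 83.5, Gad2 at 53.4, Gad1 at 39.6, Pvalb at 30.6, Slc32a1 at 23.2, Vip at 16.3, Reln at 7.35, Calb2 at 4.42 and Lhx6 at 4.02, and only Calb2 and Lhx6 overlapped among neighbours in this order. In Control TRAP the order was Slc32a1 at 135, Gad2 at 117, Gad1 at 94.4, Sst at 80.0, Npy at 43.5, Reln at 22.8, Vip at 7.98, Pvalb at 6.09, Lhx6 at 1.72 and Calb2 at 1.60. Here the ranges of Slc32a1 and Gad2, of Gad1 and Sst, of Sst and Npy, of Vip and Pvalb, and of Lhx6 and Calb2 overlapped. Slc32a1 thus went from the sixth place in total-RNA to the first in TRAP, and Npy from the first to the fifth. In EtOH and EtOH + ABT-888 Npy was again first in total-RNA and Slc32a1 first in TRAP.

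A wider list of 51 genes of interneuron classes, development and GABA handling was counted beside the 10 markers, and 45 of them passed the filter. In Control 37 of the 45 were called, 7 higher and 30 lower in TRAP, in EtOH 9 higher and 28 lower, and in EtOH + ABT-888 7 higher and 28 lower. The median log2 fold change of the 45 was -1.08 in Control, -1.32 in EtOH and -1.23 in EtOH + ABT-888, against -0.53, -0.72 and -1.14 for the 10 markers and values near 0 over all genes. The genes with the smallest p among the higher ones were the same in each treatment. They were Tac1, which encodes the precursor of substance P and is also on the striatal list (Control log2 fold change 2.95 ± 0.10, 399 CPM in TRAP against 51.2 CPM in total-RNA), and the homeobox genes Dlx6 (2.76 ± 0.11) and Dlx5 (3.42 ± 0.19), which all GABA neurons of the embryonic ganglionic eminences use, striatal ones included. Among the lower ones the smallest p in Control belonged to Id2 (-1.79 ± 0.14), a marker of neurogliaform cells, to the transcription factor Maf (-1.63 ± 0.13) and to Kcnc2 (-2.0 ± 0.16), a potassium channel of fast-spiking cells. In EtOH they belonged to Erbb4 (-1.91 ± 0.16), the neuregulin receptor of interneurons, Grin3a (-2.99 ± 0.26) and Ndnf (-3.17 ± 0.28), and in EtOH + ABT-888 to Kcnc2 (-2.46 ± 0.19), Id2 (-2.61 ± 0.22) and Igf1 (-2.62 ± 0.25). Across the 3 treatments, 28 to 30 of the 45 genes tested were lower in TRAP, where 30.4%, 26.5% and 21.5% of all genes were lower in Control, EtOH and EtOH + ABT-888.

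The tagged cells were checked against markers of excitatory neurons and of glia. In Control 9 of 12 excitatory markers were lower in TRAP and 2 were higher, with a median log2 fold change of -1.10. Slc17a7, the vesicular glutamate transporter of cortical excitatory neurons, stood at a mean of 412 CPM in Control TRAP against 889 CPM in total-RNA (log2 fold change -1.13 ± 0.12). Camk2a, whose promoter drives the transactivator, differed by -0.17 ± 0.11 in Control (adjusted p = 0.203), 0.08 ± 0.12 in EtOH (adjusted p = 0.617) and -0.11 ± 0.16 in EtOH + ABT-888 (adjusted p = 0.612). The 2 higher genes in Control were Nrgn, which encodes neurogranin (3180.3 against 1371 CPM), and Foxp2, a transcription factor of deep-layer cortical and of striatal neurons (108 against 51.8 CPM). The summed level of the 12 genes ranged from 5121 to 6447 CPM in Control TRAP and from 4588 to 5544 CPM in Control total-RNA, and the ranges of the sample types also overlapped in EtOH and EtOH + ABT-888. By count most excitatory markers were thus lower in TRAP, while the sum, to which the abundant Camk2a and Nrgn contribute most, overlapped. The 8 markers each of astrocytes, microglia, oligodendrocytes and endothelial cells with pericytes were all lower in TRAP in Control, with medians of -3.25, -3.59, -2.94 and -3.26.

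**Figure D3:**
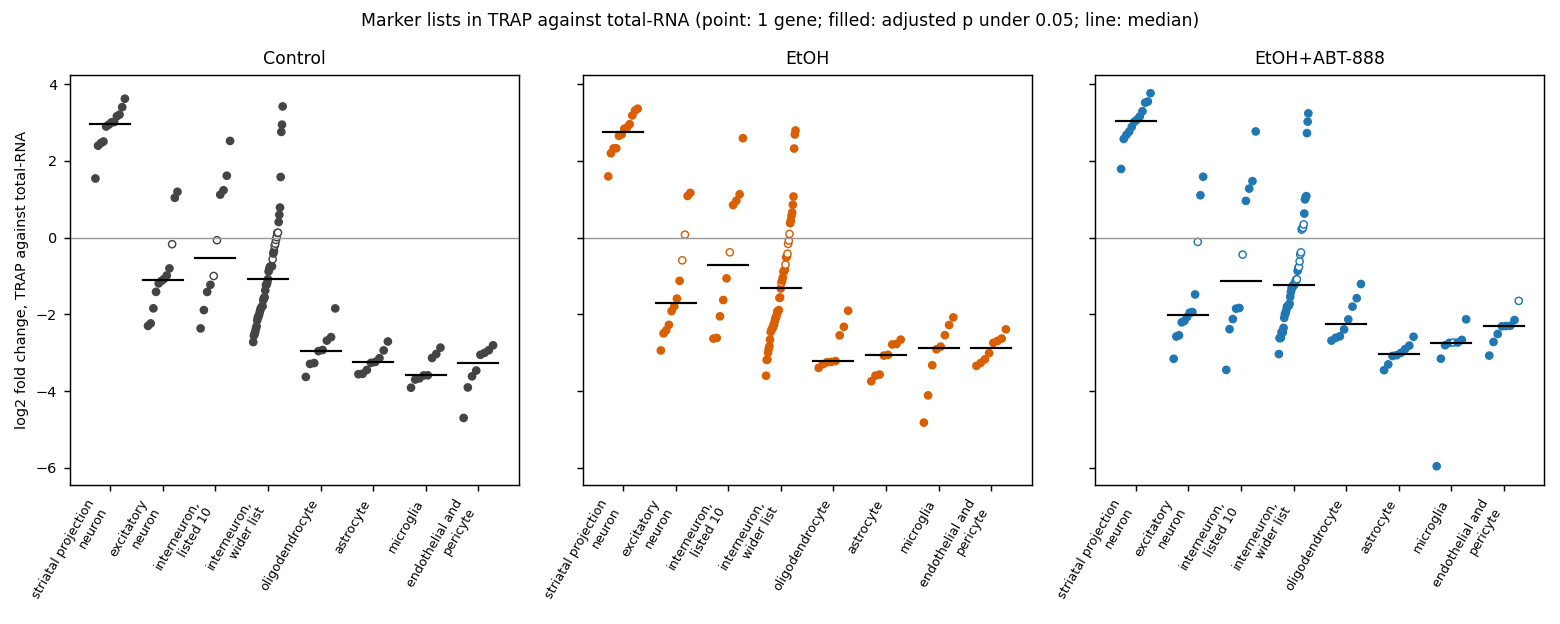
Log2 fold change of TRAP against total-RNA (vertical axis) for the genes of each marker list (horizontal axis) in Control, EtOH and EtOH + ABT-888. Each point is 1 gene, filled where its adjusted p was under 0.05, and the line is the median of the list. All striatal projection neuron markers lie above 0 (medians 2.98, 2.77 and 3.05), the glial and vascular lists lie below 0, and the interneuron lists spread over both sides.

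The second set of comparisons asked whether EtOH, alone or with ABT-888, changed the interneuron markers within a sample type. Both EtOH groups were compared with the same Control libraries, so these comparisons are not independent. Where treatment groups are said not to overlap, here and below, the share of all genes that separate likewise was not counted. In TRAP, EtOH against Control called none of the 10 markers by edgeR (3 had an unadjusted p under 0.05), where 5.24% of all genes tested were called and 3249 had an unadjusted p under 0.05. The exact test of edgeR called 2 of the 10 and DESeq2 called 1. Reln had the smallest p. Its TRAP levels of 244, 208, 468 and 343 CPM in EtOH lay below the 526, 482 and 614 CPM of Control without overlap, a log2 fold change of -0.76 ± 0.23 (95% interval -1.22 to -0.30, unadjusted p = 0.00695, adjusted p = 0.0814 by edgeR). With Reln the adjusted p was 0.0285 with the exact test, 0.0248 with DESeq2 and 0.00189 without the filter. It was 0.0224 in a single fit over all 22 libraries but 0.0825 with RLE factors. Of the 7 fits without 1 library, only that without the TRAP library of EtOH mouse 8 called Reln (-1.02, adjusted p = 0.0182). The other 6 did not, and the adjusted p reached 0.271 and the log2 fold change -0.61 among them.

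Vip in TRAP averaged 8.40 ± 4.49 CPM (SD, n = 4) in EtOH and 27.1 ± 25.9 CPM (n = 3) in Control, a log2 fold change of -1.71 ± 0.58 with an adjusted p of 0.108 by edgeR. The adjusted p was 0.0449 with the exact test, 5.03e-05 without the filter and 0.0361 in the single fit. The groups overlapped, since Control mouse 1 stood at 6.4 CPM, and without the TRAP library of Control mouse 7 the log2 fold change was -0.60 (adjusted p = 0.61). Sst in TRAP averaged 37.0 ± 12 CPM in EtOH and 57.7 ± 24.4 CPM in Control (-0.63 ± 0.29, adjusted p = 0.213; without the filter 0.0436). Without the TRAP library of Control mouse 7 the Sst value was -0.28. The other 7 markers had log2 fold changes of -0.61 (Npy) to 0.41 (Pvalb), with adjusted p of 0.306 or more. Of the wider list 1 gene was called, Cnr1, the cannabinoid receptor of Cck interneurons and of other neurons, which averaged 505 CPM in EtOH TRAP and 1084 CPM in Control TRAP (-1.08 ± 0.28, adjusted p = 0.0453). The Cnr1 call was lost without any 1 of the 3 Control TRAP libraries or the TRAP library of EtOH mouse 5.

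Other marker lists were also compared between treatments in these TRAP libraries, and few of their genes were called. The excitatory list had a median log2 fold change of -0.72 in EtOH against Control, with 1 of 12 called lower, and of -0.77 in EtOH + ABT-888 against Control, with 2 of 12 called lower. The oligodendrocyte and the endothelial and pericyte lists had medians of 0.19 and 0.41 in EtOH and of 0.89 and 0.82 in EtOH + ABT-888, with none of 8 called in each. The microglia list had a median of -0.71 in EtOH, with 1 of 8 called lower, and of -0.17 in EtOH + ABT-888, and the astrocyte list had 0.13 and 0.27, with none called. The striatal list had medians of 0.08 and 0.09, with 1 of 12 called lower in EtOH and none in EtOH + ABT-888. Their part in the Reln, Vip and Sst values in TRAP was not tested.

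EtOH + ABT-888 against Control in TRAP called none of the 10, with 0.476% of all genes called and 1696 at an unadjusted p under 0.05. Reln averaged 376 ± 72.3 CPM against 541 ± 67.0 CPM, again without overlap of the groups (-0.51 ± 0.17, unadjusted p = 0.00997, adjusted p = 0.239). Its value under EtOH alone, -0.76, and this one share the Control libraries. Vip was at -1.34 ± 0.58 (adjusted p = 0.378; without the filter 0.00241) and at -0.23 without the TRAP library of Control mouse 7, and Sst was at -0.74 ± 0.32 (adjusted p = 0.384) and at -0.38 without that library. Gad1 TRAP levels, 553 to 644 CPM, lay below the 684 to 740.2 CPM of Control (-0.28 ± 0.13, adjusted p = 0.435). Pvalb averaged 8.53 CPM against 6.34 CPM (0.44 ± 0.30, adjusted p = 0.577). Calb2 had the largest change of the 10, at 0.947 against 2.79 CPM (-1.69 ± 0.91, adjusted p = 0.492). Lhx6, Npy, Slc32a1 and Gad2 were at -0.53, -0.46, 0.17 and 0.13, with adjusted p of 0.534 to 0.744. None of the wider list was called, although the exact test and DESeq2 each called 2, and 2 were called without the TRAP library of mouse 3 or of mouse 10.

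In total-RNA, EtOH against Control called 1 marker, Gad2, where 17.6% of all genes tested were called (9.04% higher, 8.6% lower). Its levels of 432, 472, 381 and 371 CPM in EtOH lay above the 288, 299.6 and 353 CPM of Control without overlap. Gad2 rose by 1.32-fold (log2 fold change 0.40 ± 0.11, adjusted p = 0.0291 by edgeR). The call was lost in the single fit (adjusted p = 0.191) and without the total-RNA library of Control mouse 1 (0.35, adjusted p = 0.148), Control mouse 4 (0.37, adjusted p = 0.127) or EtOH mouse 5 (0.34, adjusted p = 0.0724). The summed striatal markers, also of GABA neurons, ranged from 2324 to 3287 CPM in EtOH total-RNA and from 2129 to 2647 CPM in Control total-RNA. Of the 12 striatal markers 2 were called, both higher, and the median log2 fold change of the 12 was 0.02. The part of these markers in the Gad2 level was not tested. Gad1 was at 0.16 ± 0.09 (adjusted p = 0.233) and Slc32a1 at 0.18 ± 0.11 (adjusted p = 0.275).

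Npy in EtOH total-RNA averaged 65.7 ± 16.3 CPM against 91.4 ± 6.17 CPM in Control (-0.48 ± 0.16, adjusted p = 0.0595 by edgeR). It was called by the exact test (adjusted p = 0.0312), by DESeq2 (0.0328), without the filter (0.00269) and without the total-RNA library of EtOH mouse 8 (-0.64, adjusted p = 0.0101), and had an adjusted p of 0.47 in the single fit. The groups of Npy overlapped through mouse 8, at 87.2 CPM. Reln averaged 143 ± 13.7 CPM against 175 ± 11.2 CPM without overlap (-0.29 ± 0.11, adjusted p = 0.0748). It was called only without the total-RNA library of EtOH mouse 9 (adjusted p = 0.0302). The adjusted p of Reln reached 0.239 in the other fits without 1 library and was 0.0591 to 0.499 in the settings that kept all libraries. Calb2 averaged 11.7 ± 4.77 CPM against 7.71 ± 1.60 CPM (0.61 ± 0.27, adjusted p = 0.133; without the filter 0.0167), and its log2 fold change was 0.31 without the total-RNA library of EtOH mouse 2 (adjusted p = 0.367). Sst, Pvalb, Vip and Lhx6 were at -0.34, -0.33, -0.12 and 0.17 with adjusted p of 0.20 to 0.66.

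Of the wider list 9 of the 45 genes tested were called in EtOH total-RNA, 4 higher and 5 lower, a share close to the 17.6% of all genes. In the same comparison 6 of 8 microglia markers were called, all 6 lower, and 3 of 8 endothelial and pericyte markers, all 3 lower. Of 12 excitatory markers 3 were called lower and 1 higher, and of 8 astrocyte markers 1 lower and 2 higher. The oligodendrocyte and striatal lists each had 2 called, both higher. The part of these lists in the values of the wider list was not tested. Within the wider list the smallest p belonged to Lamp5 (134 against 205 CPM, -0.62 ± 0.11, adjusted p = 0.0025). Lamp5 is a marker of neurogliaform cells and also of some excitatory neurons. Next came Moxd1 (-1.28 ± 0.26) and Cort, the somatostatin-related peptide cortistatin (-1.27 ± 0.27). Among the higher ones were Tac1 (0.66 ± 0.15) and Abat, the enzyme that breaks GABA down (0.31 ± 0.10). The number called was 0 in the single fit, 17 without the filter and 3 to 14 when 1 library was left out (3 without Control mouse 4, 14 without EtOH mouse 9).

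EtOH + ABT-888 against Control in total-RNA called none of the markers, with 0.263% of all genes called and 2243 at an unadjusted p under 0.05. Gad2 averaged 308 ± 30.2 CPM against 314 ± 34.5 CPM (-0.02 ± 0.11, 95% interval -0.25 to 0.20). Reln averaged 135 ± 21.2 CPM against 175 ± 11.2 CPM without overlap (-0.37 ± 0.13, unadjusted p = 0.0174, adjusted p = 0.213), and Sst was at -0.36 ± 0.15 (unadjusted p = 0.0404, adjusted p = 0.286). Without the total-RNA library of mouse 3 the adjusted p was 0.0468 for Reln (-0.46) and 0.0443 for Sst (-0.50). The other 6 fits without 1 library called neither gene, with adjusted p up to 0.527 for Reln and 0.676 for Sst. No setting that kept all libraries called either gene (adjusted p of 0.156 to 0.691 for Reln and 0.251 to 0.83 for Sst).

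EtOH + ABT-888 was also compared with EtOH directly, which is the test of a difference between the treatments. By edgeR, 0 genes were called in either sample type, 0% of those tested, with 136 in TRAP and 269 in total-RNA at an unadjusted p under 0.05. Gad2 in total-RNA ranged from 271 to 336 CPM in EtOH + ABT-888 and from 371 to 472 CPM in EtOH without overlap (-0.43 ± 0.12, unadjusted p = 0.00314, adjusted p = 1). None of the 12 striatal markers was called in this comparison, but all 12 had log2 fold changes below 0 (-0.56 to -0.09, median -0.24), and their part in the Gad2 level was not tested. Lhx6 in TRAP ranged from 3.93 to 7.12 CPM and from 8.12 to 16.7 CPM without overlap (-0.89 ± 0.33, unadjusted p = 0.0171, adjusted p = 1). The other markers had unadjusted p of 0.1 or more in both sample types.

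**Figure D4:**
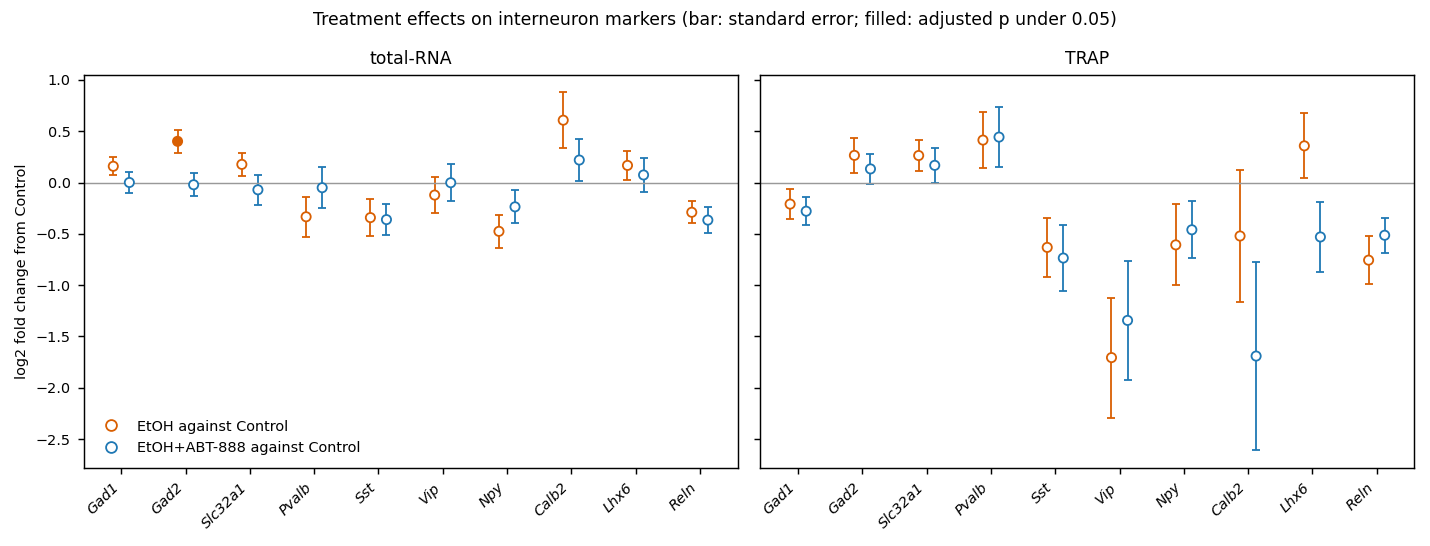
Log2 fold change from Control (vertical axis) of the 10 marker genes (horizontal axis) in total-RNA (left) and TRAP (right), for EtOH and for EtOH + ABT-888. Points are edgeR estimates, bars are the standard error, and a filled point has an adjusted p under 0.05. Gad2 under EtOH in total-RNA, at 0.40, is the filled point, and Vip and Calb2 in TRAP have the longest bars.

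The difference between sample types was then tested for a change with treatment, as an interaction over all 22 libraries. EtOH changed it for none of the markers by edgeR, where 0.0213% of all genes were called and 685 had an unadjusted p under 0.05, and EtOH + ABT-888 changed it for none, where 0% were called and 476 had an unadjusted p under 0.05. With EtOH the smallest unadjusted p of a marker was that of Gad1 (-0.38 ± 0.16, unadjusted p = 0.0294, adjusted p = 1 by edgeR's quasi-likelihood test), followed by Vip (-1.60 ± 0.70) and Pvalb (0.73 ± 0.34). Within mice, the Gad1 difference of log2 CPM between TRAP and total-RNA was 1.24 to 1.27 in Control, 0.51 to 1.10 in EtOH and 0.78 to 1.18 in EtOH + ABT-888. The Pvalb difference was -2.80 to -2.10 in Control, -2.03 to -0.89 in EtOH and -2.48 to -1.40 in EtOH + ABT-888. Both genes are among the markers with the smallest unadjusted p above, and how many of all genes separate in this way was not counted. Neither interaction called a marker when the mouse was a block. In that fit the EtOH interaction was -0.40 for Gad1 (adjusted p = 0.351), 0.80 for Pvalb (adjusted p = 0.379) and -0.55 for Reln (adjusted p = 0.318). Without the TRAP library of Control mouse 7 the value of Vip, without the block, was -0.51. With EtOH + ABT-888 the smallest unadjusted p was that of Calb2 (-2.07 ± 0.92, unadjusted p = 0.0348, adjusted p = 1 by edgeR's quasi-likelihood test), which was -0.87 without the same library and -2.71 without the TRAP library of EtOH + ABT-888 mouse 6.

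Genes whose profile over the 22 libraries lay closest to the markers were found by the root mean square difference of log2 CPM, after each gene was centred on its own mean, among protein-coding genes of the filtered table. For the mean profile of Gad1, Gad2 and Slc32a1 these were Coro7 (0.15), Sertad4 (0.17), Gnal (0.17), Arel1 (0.18) and Rnf166 (0.18). Gnal, the G protein subunit of striatal dopamine and adenosine signalling, averaged 1491 CPM over the TRAP libraries and 455 CPM over the total-RNA libraries. For Pvalb they were Pla2g7 (0.24), Scg3 (0.27) and Cst3 (0.27), for Sst Unc13a (0.33), Mest (0.34) and Map3k5 (0.34), and for Vip Nr4a2 (0.49), Tbr1 (0.52) and Adra1b (0.53). Among the markers themselves Gad1 and Gad2 were closest to each other (0.23), followed by Gad1 and Reln (0.34), Gad2 and Reln (0.45) and Pvalb and Npy (0.48), while Slc32a1 and Calb2 were farthest apart (3.00). Libraries of both sample types entered these distances, so the TRAP to total-RNA difference weighs heavily in them.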

How the data were processed

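PFC RNA of 11 mice was sequenced as 11 TRAP and 11 total-RNA libraries. The authors depleted rRNA, made CORALL total-RNA libraries, aligned paired reads to mm10 with STAR and counted reads per Ensembl gene with featureCounts, and the deposited values are these raw counts (versions and strand setting are not given in the sources used here). Identifiers were named from GENCODE mouse release 21 (38872 of 39056 matched). Genes with at least 500 counts in total and a count in at least 3 libraries were tested (14072). Groups were compared with edgeR 4.0.16 in R 4.3.3 (TMM factors, glmQLFit and glmQLFTest on the groups compared, the interaction on all 22 libraries, two-sided, Benjamini-Hochberg adjustment over all genes tested, called under 0.05). Standard errors and 95% intervals (1.96 SE) are on the log2 scale. CPM used TMM factors over all libraries, and RPKM divided CPM by the kilobases of merged exons. The fits were tested on simulated data.

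The named genes were the 10 markers, up to 3 genes of the wider list with the smallest p in each direction, and the nearest profiles (5 for the GABA genes, 3 each for Pvalb, Sst and Vip); some listed genes are not reported here by name. Further listed genes (Drd1, Drd2, Ppp1r1b, Penk, Slc17a7, Camk2a, Nrgn, Foxp2, Calb1, Trp73, Lhx5, Lhx1 and Ebf3) were named outside this rule, after their values were seen. The members and all lists were chosen with earlier results of these data known. Libraries with the same number came from the same mouse by the labels, and the deviations of TRAP and total-RNA from their group means correlated at 0.102 to 0.622 in the 11 mice, all over 0.1. No pair of libraries of a group agreed within sampling noise. No batch is given in the labels. The p-values measure the spread between these mice, except those of the fit without the filter, which cannot be taken in this way. Alternatives were the exact or likelihood ratio test, DESeq2 1.42.0, RLE factors, no filter, a single fit over 22 libraries, the mouse as a block, and leaving out each library. Intervals cover the fitted spread, and counts without molecular identifiers are not independent molecules.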

Additional observations from a re-analysis of the deposited data

Results flagged for a closer look

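Each of the 10 markers was examined in the 4 groups of 4 libraries, 40 sets in all, for a single library far from the other 3 (the gap to the nearest library divided by the range, past Dixon's critical value). Chance flags about 1 in 20 sets, or 2 here, and 3 were found. Slc32a1 in EtOH total-RNA stood at 83.4 CPM in mouse 5 and at 70.8 CPM in the next library (0.886 of the range). Vip in EtOH + ABT-888 TRAP stood at 20.6 CPM in mouse 6 and at 8.69 CPM in the next (0.87). Lhx6 in EtOH TRAP stood at 16.7 CPM in mouse 2 and at 9.24 CPM in the next (0.869). Groups of 3 Control libraries could not be examined in this way.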

How the results depend on the processing

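The TRAP against total-RNA calls of the markers were stable in number, at 7 to 9 of 10 in Control, 9 to 9 in EtOH and 9 to 10 in EtOH + ABT-888 when 1 library was left out. The treatment calls were few and moved with the method. For EtOH against Control in TRAP the 0 called became 2 with the exact test, 1 with DESeq2, 3 without the filter and 2 where all 22 libraries shared 1 fit, and 0 to 1 without 1 library. In the TRAP comparison of EtOH + ABT-888 with Control it became 1 without the filter. For EtOH against Control in total-RNA the 1 called became 2 with the exact test, 2 with DESeq2, 3 without the filter and 0 in the single fit, and 0 to 2 without 1 library. In its total-RNA comparison the 0 called became 0 to 2 without 1 library. The cause of these moves was not tested. The log2 fold change of Sst in Control, TRAP against total-RNA, ranged from -0.41 to 0.20 without 1 library and changed sign without mouse 1 in TRAP (0.20) or in total-RNA (0.03). Leaving out a library of Control leaves 2 in that group.

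With the mouse as a replicate block, 9 of the 10 markers were called in Control, 9 in EtOH and 10 in EtOH + ABT-888. The block added Vip in Control (-1.30) and Sst in EtOH + ABT-888 (-0.50) and changed no other call. In both interactions 0 markers were called with the block. Treatments were given to different mice, so the block could not be used for treatment comparisons within a sample type.

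Of 62 further marker results with an unadjusted p of at least 0.05, 2 changed sign in a setting that kept all libraries and 24 without 1 library, and 0 became called. Calb2 had 2 to 103 counts per TRAP library, and the TRAP library with the fewest counts in total, 6570957, held 14 Calb2 counts. In the wider list, EtOH against Control in TRAP called 3 genes in place of 1 with the exact test, DESeq2, no filter or the single fit, and 0 to 2 without 1 library. For EtOH + ABT-888 in TRAP it called 0 to 2 genes and in total-RNA 0 to 1 over these settings, and 0 to 2 in each without 1 library.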
